A study of Mus musculus with 20 samples.

Results

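Endothelial cells line every blood vessel of the kidney, and 10 genes that mark them were followed here in whole-kidney RNA of mice given cisplatin with or without 7-hydroxycoumarin-β-D-glucuronide (7-HCG). The genes were Pecam1, Cdh5, Kdr, Tek, Tie1, Flt1, Emcn, Ehd3, Plvap and Aplnr, picked by symbol from the 25638 gene rows of the deposited count table. Each symbol matched 1 row, and all 10 passed the filter on low counts that left 14858 genes for testing. The mice were male C57BL/6J animals aged 6 to 8 weeks, in 4 groups of 5. Controls were given oral PBS and an intraperitoneal saline injection. Cisplatin mice were given oral PBS and 10 mg/kg cisplatin, a platinum drug that injures the proximal tubule. The remaining animals were given 7-HCG by mouth at 15 or 30 mg/kg once a day for 5 days, with the same cisplatin injection on day 3. All kidneys were collected 72 h after the injection. There was no group given 7-HCG without cisplatin, so a comparison of either dose with control holds the effects of both agents.

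The endothelium of the kidney is not uniform. Glomerular capillaries filter plasma through pores, peritubular capillaries take back what the tubules reabsorb, and the descending vessels of the medulla keep the osmotic gradient. These cells depend on vascular endothelial growth factor (VEGF), made largely by tubule cells and podocytes and read by the receptors encoded by Kdr and Flt1. Angiopoietins, read by the receptor encoded by Tek, act with VEGF to keep capillaries stable, and the loss of peritubular capillaries is a known feature of kidney injury.

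The libraries held 10714532 to 49602115 counts, and 3 counts corresponded to 0.0497 to 0.375 CPM, the count normalised to library size, with sizes scaled by the TMM method. The 8 proximal tubule markers and the 30 other endothelial identity genes checked had counts in each library. Cisplatin replicates 9 and 10 stood apart, with 77.7% and 70.6% of counts from the 13 mRNAs of the mitochondrial genome, while the other cisplatin libraries had 16.6% to 27.3%. Control libraries had 24.6% to 45.5%, and those given 7-HCG 3.04% to 8.01%. Control replicates 2 and 5 contained fat: Adipoq, which encodes the adipocyte hormone adiponectin, stood at 19.3 and 105 CPM there and at 0 to 0.333 CPM in the other controls. Fat markers were also high in replicate 5 at 15 mg/kg (Adipoq 8.61 CPM) and replicate 6 at 30 mg/kg (5.71 CPM), against 0 to 2.43 CPM in the other treated libraries. Where a count or call of the 10 endothelial genes depended on these cisplatin or control libraries, its value or loss without them is given. Adjusted p values are from the edgeR quasi-likelihood F-test, 2-sided, with Benjamini-Hochberg adjustment over all 14858 genes, and a gene is said to have risen or fallen when this p was below 0.05.

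Per kilobase of annotated exon, Plvap had the highest level of the 10 genes in control kidneys. It encodes the protein that forms the diaphragms of fenestrated capillaries, and stood at 148 ± 72.1 CPM per kilobase (SD, n = 5), with a lowest animal of 85.1. No other member exceeded 60.5 in any control animal. Emcn, which encodes the capillary and vein sialoglycoprotein endomucin, followed at 24.8 ± 21.3. Pecam1 and Cdh5, which encode adhesion molecules of the junctions between endothelial cells (PECAM-1 and VE-cadherin), stood at 13.0 ± 7.66 and 12.2 ± 7.20. Tie1 and the angiopoietin receptor gene Tek had 9.81 ± 3.21 and 8.05 ± 1.29. Ehd3, which encodes an endocytic membrane protein found in the glomerular endothelium of the mouse kidney, had 5.89 ± 0.856. The VEGF receptor genes Kdr and Flt1 had 4.03 ± 1.21 and 2.66 ± 0.685. Aplnr, which encodes the receptor for apelin, was lowest at 1.99 ± 1.95. In this order the ranges of neighbours overlapped, except between Plvap and Emcn. In the cisplatin group the mean of Flt1 (2.90 ± 2.20 CPM per kilobase) lay above that of Kdr (1.16 ± 1.00). It also did so at 15 mg/kg (1.02 ± 0.288 and 0.808 ± 0.607) and at 30 mg/kg (1.07 ± 0.352 and 0.974 ± 0.518).

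All 10 genes are protein coding in the GENCODE vM21 annotation of GRCm38, the build named in the submitters' processing notes. Kdr (chr5:75932827-75978458) and Flt1 (chr5:147561604-147726011) lie on the minus strand of the same chromosome. Tek (chr4:94739289-94874976, plus strand) and Tie1 (chr4:118471191-118490061, minus strand) share chromosome 4. The others are Pecam1 (chr11:106654217-106750628), Cdh5 (chr8:104101625-104144511), Emcn (chr3:137341067-137432185), Ehd3 (chr17:73804841-73832093), Plvap (chr8:71497765-71511752) and Aplnr (chr2:85136225-85139923). For Ehd3 alone the positions printed here differ from GENCODE vM21, which gives 73804134 to 73832094. Its start there is 707 bases away. Cdh5 overlaps the antisense gene Gm29682 (chr8:104088916-104105873). Plvap overlaps the end of Gtpbp3 (chr8:71488103-71499583) on the opposite strand. The strand setting of the counting is not given in the sources used here, so reads of these pairs cannot be told apart. Flt1 also gives a shortened mRNA for a soluble receptor that binds VEGF without signalling, and counts per gene do not separate it from the full-length form.

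The RefSeq promoter table (GRCm38.p6) held entries for Kdr, Tek, Tie1, Flt1, Emcn and Ehd3, each with 250 bases before and 50 after the start. The promoters of both receptor pairs are shown because the counts within each pair are set against each other among the results. Capitals mark the 6 letters AGGAAG or their reverse complement CTTCCT, a form of the core bound by ETS transcription factors, a family known to drive endothelial genes. The sequences are given 5′ to 3′ on the gene's own strand, for Kdr at chr5:75978406-75978705, Flt1 at chr5:147725962-147726261, Tek at chr4:94739039-94739338 and Tie1 at chr4:118489800-118490099.
Kdr: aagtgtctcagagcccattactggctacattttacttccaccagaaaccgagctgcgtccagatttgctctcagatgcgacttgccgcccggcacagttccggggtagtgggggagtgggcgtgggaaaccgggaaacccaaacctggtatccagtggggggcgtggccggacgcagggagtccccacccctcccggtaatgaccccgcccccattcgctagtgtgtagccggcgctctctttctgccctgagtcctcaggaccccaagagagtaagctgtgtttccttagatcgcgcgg
Flt1: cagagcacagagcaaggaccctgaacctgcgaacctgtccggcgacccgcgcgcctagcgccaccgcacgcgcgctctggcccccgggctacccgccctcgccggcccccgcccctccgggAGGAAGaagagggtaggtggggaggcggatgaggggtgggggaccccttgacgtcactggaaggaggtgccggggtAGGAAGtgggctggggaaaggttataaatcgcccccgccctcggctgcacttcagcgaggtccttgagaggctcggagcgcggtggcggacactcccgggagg
Tek: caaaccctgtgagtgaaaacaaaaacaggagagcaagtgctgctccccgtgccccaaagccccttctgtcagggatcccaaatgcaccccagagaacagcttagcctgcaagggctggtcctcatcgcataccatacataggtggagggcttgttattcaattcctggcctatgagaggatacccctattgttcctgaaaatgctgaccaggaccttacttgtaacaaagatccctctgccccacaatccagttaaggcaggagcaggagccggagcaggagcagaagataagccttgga
Tie1: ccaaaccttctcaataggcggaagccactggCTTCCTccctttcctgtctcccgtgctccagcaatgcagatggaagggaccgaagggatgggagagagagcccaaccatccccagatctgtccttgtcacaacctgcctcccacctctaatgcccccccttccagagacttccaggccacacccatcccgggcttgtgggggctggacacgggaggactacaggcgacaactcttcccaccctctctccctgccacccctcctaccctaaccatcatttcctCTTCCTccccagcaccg
Counted on both strands, the Flt1 and Tie1 promoters held 2 matches each, and those of Kdr and Tek held 0 in this window. Emcn had 2 and Ehd3 had 1. At least 1 match was present in 35.4% of the 32851 promoters of the same length in the table. The GATA letters AGATAA or TTATCT were found once in the Tek promoter and in 11.2% of all promoters. These matches describe letters and not binding.

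Cisplatin was compared with control to ask how the injured kidney differed from the uninjured. Of the 10 genes, 5 fell and none rose: Pecam1, Cdh5, Kdr, Tek and Aplnr. Over all tested genes 13.4% were called, 8.41% higher and 5.01% lower. The median log2 fold change was -1.47 over the 10 genes and -0.01 over all tested genes. It was -0.89 over the 10 genes with control replicates 2 and 5 left out. In whole tissue, fewer endothelial cells and less mRNA per cell cannot be told apart.

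**Figure D1:**
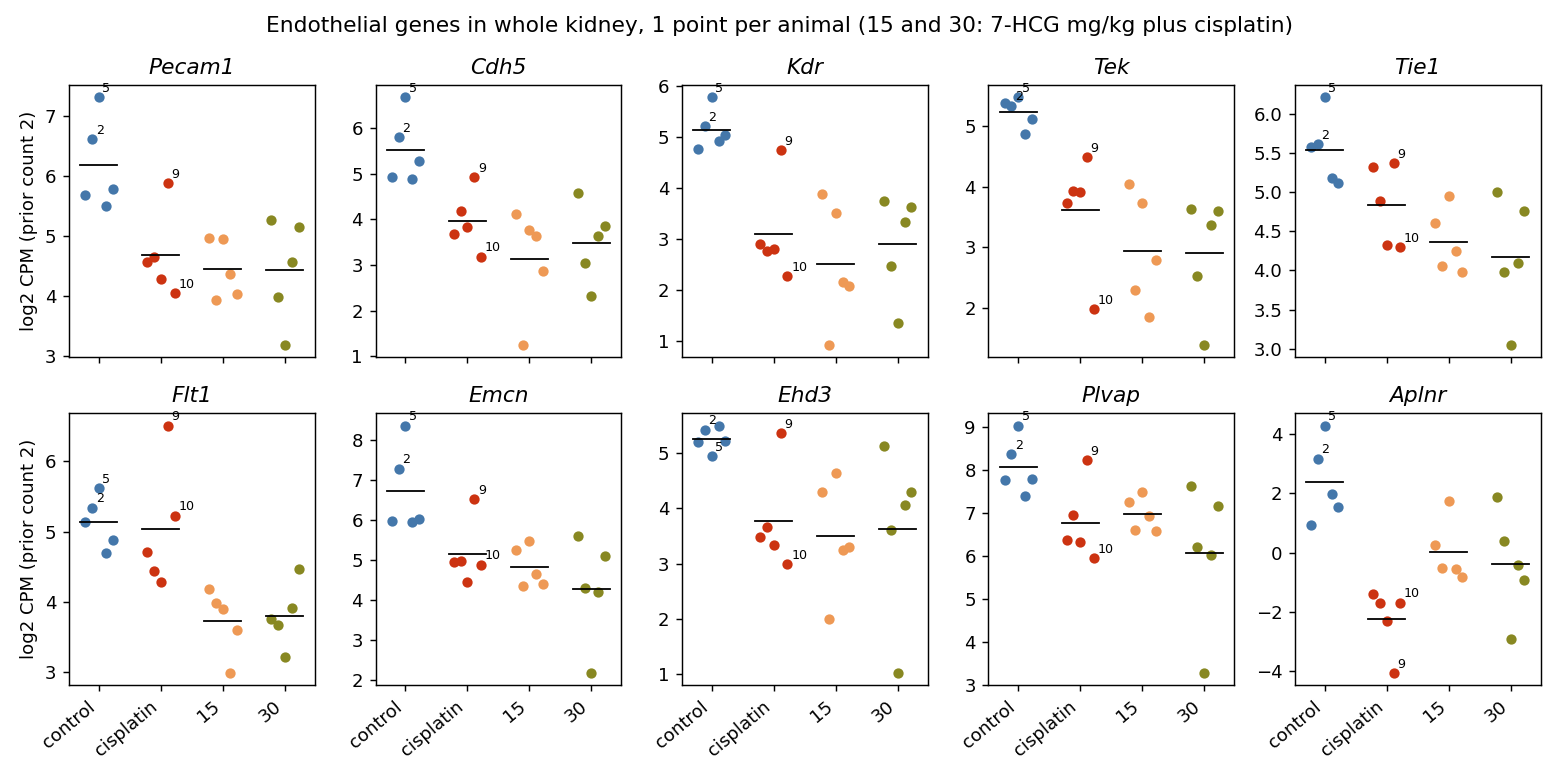
Log2 CPM (prior count 2, vertical axis) of the 10 endothelial genes in each animal, by group, with 1 point per animal and a line at the group mean. The labelled points are control replicates 2 and 5 and cisplatin replicates 9 and 10. Cisplatin replicate 9 is the highest of its group for 9 genes, and Aplnr, at 0 counts in that library, is drawn at the value the prior count gives.

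Aplnr had the largest change. In control animals it stood at 1.83, 8.85, 19.3, 3.90 and 2.84 CPM, in the order of replicates 1, 2, 5, 7 and 8. In cisplatin animals it stood at 0.321, 0.244, 0.142, 0 and 0.250 CPM, in the order of replicates 2, 3, 6, 9 and 10, which rest on 4, 13, 4, 0 and 2 counts. The groups did not overlap, and in replicate 9 the count of 0 allows a level of up to 0.306 CPM. The fitted log2 fold change was -5.19 ± 0.95 (SE, adjusted p = 0.00348), a size that depends on how low counts are treated. Without control replicates 2 and 5, the 2 highest of the group, it was -3.84 ± 0.88 with adjusted p = 0.0388. Of all 10 genes, Aplnr alone was still called in that fit. Its ligand gene Apln, given with the ligands, was also lower.

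Kdr encodes VEGFR2, the main signalling receptor for VEGF. Its control values were 27.2, 37.0, 54.8, 30.3 and 32.7 CPM, and its cisplatin values were 7.47, 6.74, 6.96, 26.6 and 4.75 CPM, in the same replicate orders. Every cisplatin animal was below every control, although replicate 9, at 26.6 CPM, lay close to the lowest control, at 27.2 CPM. Kdr fell 3.49-fold (log2 fold change -1.80 ± 0.55, adjusted p = 0.0351). Tek, which encodes the angiopoietin receptor TIE2, had 41.3, 40.3, 44.4, 29.1 and 34.6 CPM in control and 13.3, 15.2, 14.9, 22.4 and 3.88 CPM in cisplatin. Its groups did not overlap either, and it fell 2.71-fold (-1.44 ± 0.44, adjusted p = 0.0367). With Aplnr these were the 3 genes whose groups were separate in the lower direction, as were 4.52% of all tested genes.

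Pecam1 and Cdh5, the junction genes, fell with overlap between groups. Pecam1 had 50.9, 97.1, 158, 45.0 and 54.5 CPM in control and 23.6, 25.0, 19.4, 58.5 and 16.4 CPM in cisplatin. Only cisplatin replicate 9 reached into the control range. Its log2 fold change was -1.51 ± 0.43 (adjusted p = 0.0254). Cdh5 had 30.3, 55.8, 102, 29.4 and 38.9 CPM in control and 12.9, 18.1, 14.2, 30.4 and 9.01 CPM in cisplatin, and again only replicate 9 overlapped. Its log2 fold change was -1.60 ± 0.49 (adjusted p = 0.0346).

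The 4 falls other than that of Aplnr depended on few libraries. Without control replicates 2 and 5 the log2 fold changes were -0.82 for Pecam1 (adjusted p = 0.28), -0.96 for Cdh5 (0.292), -1.53 for Kdr (0.173) and -1.32 for Tek (0.157). Without cisplatin replicates 9 and 10, Pecam1 (-1.88, adjusted p = 0.0384), Kdr (-2.41, 0.0325) and Aplnr (-5.05, 0.0278) remained called, and Cdh5 and Tek did not.

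**Figure D2:**
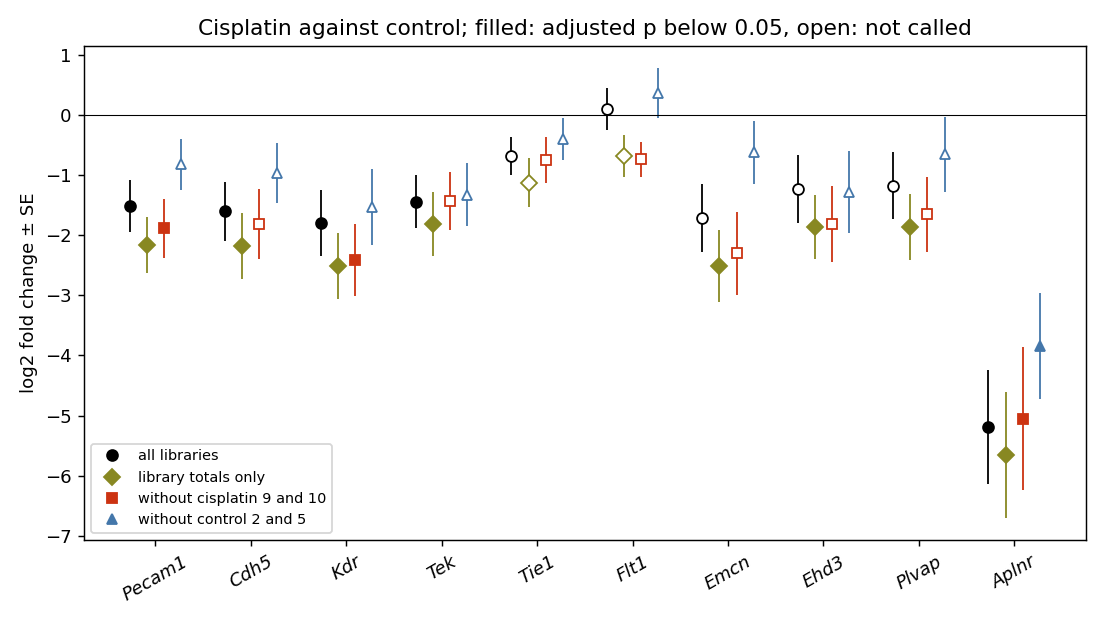
Log2 fold change of cisplatin against control with its SE for each gene under 4 treatments of the data: all libraries, library totals as the only scaling, without cisplatin replicates 9 and 10, and without control replicates 2 and 5. Filled symbols have an adjusted p below 0.05; Aplnr is filled in all 4, and without control replicates 2 and 5 no other gene is.

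The remaining 5 genes did not pass the test. Emcn came closest: it had 62.5, 155, 327, 61.4 and 64.8 CPM in control and 31.0, 31.5, 21.7, 91.7 and 29.5 CPM in cisplatin (log2 fold change -1.71 ± 0.57, adjusted p = 0.0534). Of its cisplatin animals, 4 were below all controls. Ehd3 had -1.23 ± 0.57 (adjusted p = 0.162), and its cisplatin animals stood at 7.88 to 12.5 CPM apart from replicate 9 at 40.8 CPM, inside the control range of 30.8 to 45.1 CPM. Plvap had -1.17 ± 0.55 (adjusted p = 0.165), with 169 to 527 CPM in control and 61.9 to 301 CPM in cisplatin. Tie1, an orphan receptor that partners with the product of Tek, had -0.68 ± 0.31 (adjusted p = 0.155), with 34.6 to 74.0 CPM in control and 19.6 to 41.3 CPM in cisplatin.

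Flt1, which encodes VEGFR1, a receptor that binds VEGF tightly and signals weakly, was the member with no lower mean under cisplatin. Its control values were 35.0, 40.4, 49.2, 25.8 and 29.4 CPM, and its cisplatin values were 26.2, 21.5, 19.5, 90.9 and 37.4 CPM. The 2 highest cisplatin animals were replicates 9 and 10. The log2 fold change was 0.11 ± 0.35 (adjusted p = 0.864, 95% interval -0.63 to 0.86). Leaving those libraries out gave -0.73 (adjusted p = 0.155).

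The members of a receptor pair can be set against each other within a library, where scaling has no part. The ratio of Flt1 to Kdr counts, which is not corrected for length, was 0.852 to 1.29 in control and 2.80 to 7.87 in cisplatin. All cisplatin animals were above all controls, replicates 9 (3.41) and 10 (7.87) included. The Tie1 to Tek ratio was 1.00 to 1.67 in control and 1.34 to 5.06 in cisplatin, with overlap. Aplnr counts per 100 Pecam1 counts were 3.59 to 12.2 in control and 0 to 1.53 in cisplatin, without overlap. Flt1 was also high against Pecam1, with 86.2 to 228 counts per 100 Pecam1 counts in cisplatin and 31.1 to 68.9 in control. By contrast, Plvap had 353 to 514 per 100 Pecam1 counts in cisplatin and 333 to 433 in control, with overlap. With 7-HCG the Flt1 to Kdr ratio was 1.22 to 8.5 for the lower dose and 0.998 to 3.69 for the higher, both of which reach into the control and the cisplatin ranges. Aplnr per 100 Pecam1 counts was 3.01 to 10.6 for the lower dose, above every cisplatin animal, and 0.813 to 9.41 for the higher. These ratios were chosen after the values were seen, so they are given as a description without a test.

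**Figure D3:**
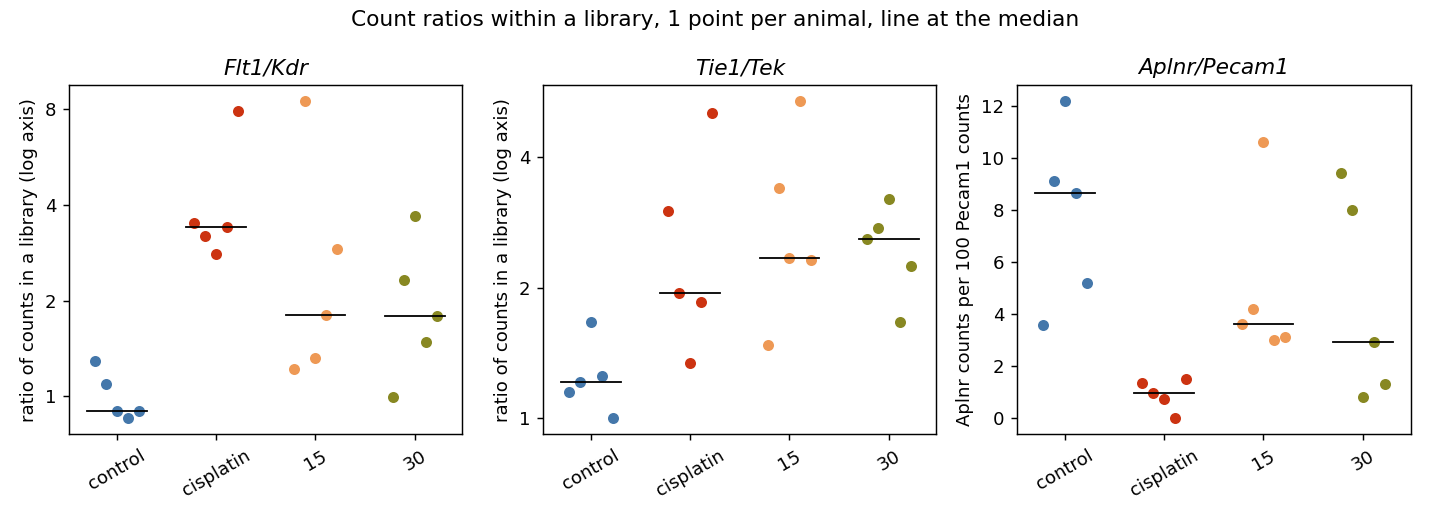
Ratios of counts within a library for Flt1 over Kdr, Tie1 over Tek (both on log axes) and Aplnr per 100 Pecam1 counts (linear axis), with 1 point per animal and a line at the median. The Flt1 to Kdr ratio is 0.852 to 1.29 in control and 2.80 to 7.87 in cisplatin.

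Each dose of 7-HCG was compared with cisplatin alone to ask whether the compound changed the endothelial genes of the injured kidney. At both doses 1 of the 10 genes was lower, Flt1, and 1 was higher, Aplnr. The share called over all tested genes was 37.5% for the lower dose (18.9% higher and 18.6% lower) and 27.9% for the higher (14.7% and 13.2%), so 2 of 10 is no more than the share over all genes. The median log2 fold change over the 10 genes was -0.48 at 15 mg/kg and -0.40 at 30 mg/kg, beside -0.05 and 0 over all tested genes. These medians did not keep their sign: they were 0.06 and -0.05 without cisplatin replicates 9 and 10, and 0.13 and 0.13 with library totals as the only scaling, where all tested genes had 0.23 and 0.39. Both comparisons use the same cisplatin libraries.

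**Figure D4:**
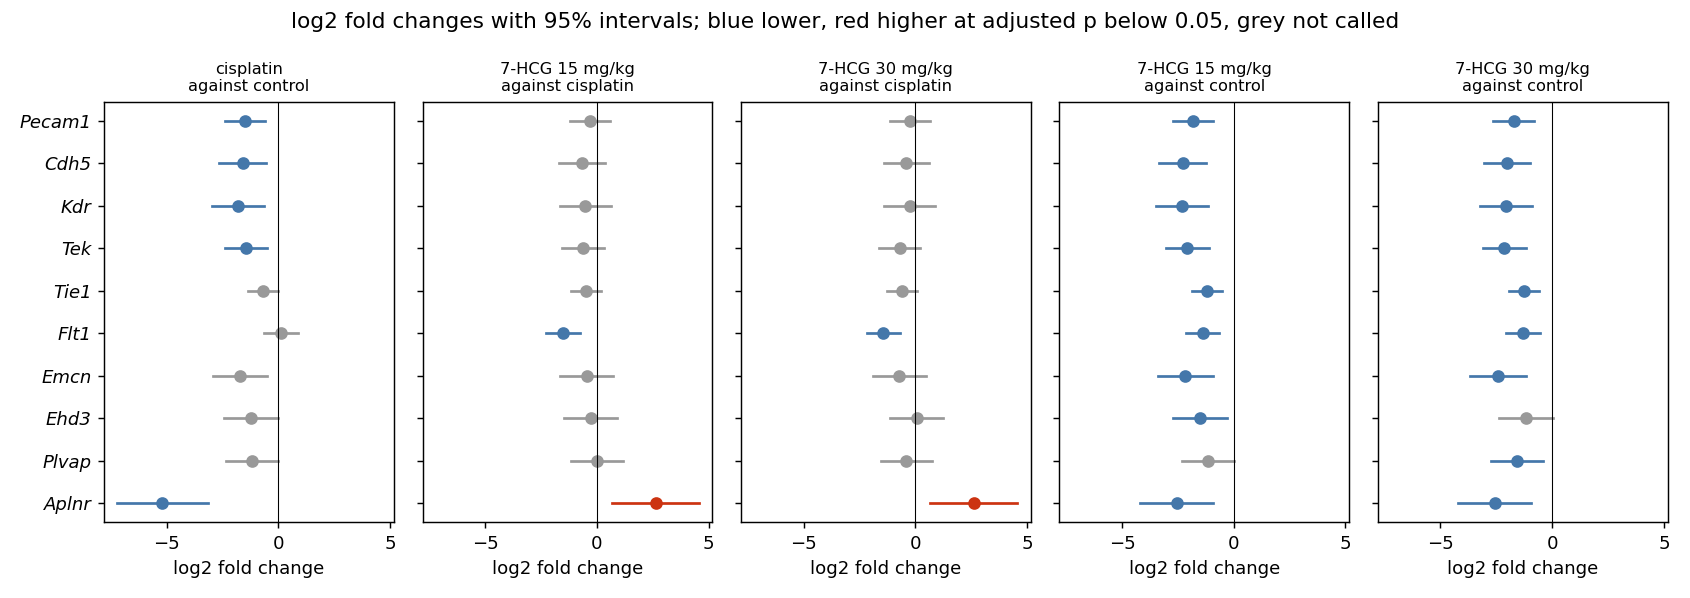
Log2 fold changes (points) with 95% intervals (lines) of the 10 genes in 5 comparisons; blue marks genes lower and red genes higher at an adjusted p below 0.05, grey the rest. In the comparisons of either dose with cisplatin only Flt1 is blue and only Aplnr is red, and against control 9 of 10 genes are blue at each dose.

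Flt1 stood at 18.0, 15.7, 14.9, 7.87 and 12.1 CPM at 15 mg/kg, in the order of replicates 1, 2, 3, 5 and 7. At 30 mg/kg it stood at 13.4, 12.7, 9.19, 14.9 and 22.1 CPM, in the order of replicates 1, 5, 6, 7 and 8. All animals at 15 mg/kg and all but replicate 8 at 30 mg/kg were below the lowest cisplatin animal, 19.5 CPM. At 15 mg/kg 9.57% of all tested genes were separate in this direction. Flt1 was 2.84-fold lower at 15 mg/kg (log2 fold change -1.50 ± 0.36, adjusted p = 0.00315) and 2.69-fold lower at 30 mg/kg (-1.43 ± 0.36, adjusted p = 0.00679). Without cisplatin replicates 9 and 10 the changes were -0.67 (adjusted p = 0.0857) and -0.64 (0.131), and with library totals as the only scaling -0.82 (0.105) and -0.65 (0.208).

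Aplnr stood at 1.13, 0.642, 3.28, 0.617 and 0.507 CPM at 15 mg/kg and at 3.61, 1.26, 0.0732, 0.695 and 0.466 CPM at 30 mg/kg, in the same orders. All animals at 15 mg/kg were above all cisplatin animals, and at 30 mg/kg all but replicate 6 were. At 15 mg/kg 10.6% of all tested genes were separate in this direction. The log2 fold change was 2.63 ± 0.92 at 15 mg/kg (adjusted p = 0.0301) and 2.62 ± 0.92 at 30 mg/kg (adjusted p = 0.0388). With cisplatin replicates 9 and 10 left out the values were 2.48 (adjusted p = 0.108) and 2.45 (0.140), and with library totals as the only scaling 2.88 (0.0532) and 2.87 (0.0633). Single animals also carried these calls. Without the highest animal of each dose the change was 1.87 at 15 mg/kg (replicate 3 left out, adjusted p = 0.11) and 1.66 at 30 mg/kg (replicate 1 left out, adjusted p = 0.168). The call at 15 mg/kg was also lost without cisplatin replicate 6 (2.50, 0.0659) or 9 (2.44, 0.0634). That at 30 mg/kg was lost without replicate 5 of the dose (2.61, 0.0588) or any of the 5 cisplatin animals (2.42 to 2.80, adjusted p from 0.0581 to 0.081). Against control, Aplnr was still lower at 15 mg/kg (-2.56 ± 0.77, adjusted p = 0.0117) and at 30 mg/kg (-2.58 ± 0.77, adjusted p = 0.0156). Neither call held without control replicates 2 and 5 (-1.20, adjusted p = 0.24, and -1.21, 0.263).

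For the other 8 genes neither dose differed from cisplatin by the test. Their log2 fold changes ran from -0.67 (Cdh5) to 0 (Plvap) at 15 mg/kg and from -0.71 (Emcn) to 0.06 (Ehd3) at 30 mg/kg. For Kdr the 95% interval ran from -1.65 to 0.63 for the lower dose and from -1.38 to 0.89 for the higher, and for Pecam1 it was -1.21 to 0.57 and -1.11 to 0.67. These intervals leave room for changes of over 2-fold downward in both genes.

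Against control, 9 of the 10 genes were lower at each dose. The exceptions were Plvap at 15 mg/kg (log2 fold change -1.17 ± 0.55, adjusted p = 0.086) and Ehd3 at 30 mg/kg (-1.18 ± 0.57, adjusted p = 0.111). The share called over all tested genes was 45.2% for the lower dose (23% of genes higher and 22.2% lower) and 34.2% for the higher (18.6% and 15.6%). The medians over the 10 genes were -1.95 and -1.87, beside -0.06 and 0.01 over all tested genes. For 8 genes at 15 mg/kg and 7 at 30 mg/kg the groups were separate, each with the treated animals lower, as for 16.7% and 12.7% of all tested genes. Both comparisons use the same control libraries. Without control replicates 2 and 5 the number of the 10 genes called was 5 at 15 mg/kg and 1 at 30 mg/kg, and the medians were -1.17 and -1.21.

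Kdr stood at 14.8, 1.85, 11.3, 4.38 and 4.16 CPM at 15 mg/kg (log2 fold change against control -2.31 ± 0.55, adjusted p = 0.00284). At 30 mg/kg it stood at 13.5, 5.48, 2.49, 10.1 and 12.4 CPM (-2.05 ± 0.55, adjusted p = 0.00847). Every treated animal was below the lowest control, 27.2 CPM. Tek stood at 16.4, 4.86, 13.2, 3.52 and 6.81 CPM at 15 mg/kg (-2.08 ± 0.45, adjusted p = 0.00139). At 30 mg/kg it stood at 12.3, 5.72, 2.56, 10.2 and 12.0 CPM (-2.14 ± 0.45, adjusted p = 0.00196). It was likewise below the lowest control, 29.1 CPM, in each treated animal. Without control replicates 2 and 5, Tek alone was still called at 30 mg/kg. There the adjusted p of Kdr, Flt1 and Emcn rose to as much as 0.1, 0.121 and 0.111 over the alternatives. At 15 mg/kg Tie1, Emcn, Ehd3 and Aplnr lost their calls without those controls, and Kdr, Tek and Flt1 kept theirs. Flt1 was lower than control at both doses (-1.39 ± 0.36, adjusted p = 0.00404, and -1.31 ± 0.35, adjusted p = 0.00842). Under cisplatin alone it was not called. Its change there was 0.11 with all libraries and -0.73 without cisplatin replicates 9 and 10 (edgeR adjusted p = 0.155). With all libraries, Emcn had the largest change of any gene but Aplnr at 30 mg/kg (-2.42 ± 0.59, adjusted p = 0.00489). It ranged there from 4.47 to 48.5 CPM. Its control values were 155 and 327 CPM in replicates 2 and 5, and 61.4 to 64.8 CPM in the others. Over the alternatives its change at 30 mg/kg was as small as -1.06. At 15 mg/kg it was -1.07 without those controls (edgeR adjusted p = 0.133).

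The doses did not differ in any of the 10 genes, whose log2 fold changes of 30 against 15 mg/kg ran from -0.40 (Plvap) to 0.33 (Ehd3). Over all genes edgeR called 0 (0%) and DESeq2 called 1, with 1066 at an unadjusted p below 0.05. The widest interval was that of Aplnr, -1.60 to 1.57, and for Kdr it was -0.86 to 1.39, so that differences of over 2-fold remain within reach of the error.

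The same animals were high or low for most of the 10 genes. Control replicate 5 was the highest control for 9 genes, cisplatin replicate 9 the highest of its group for 9, and 30 mg/kg replicate 6, one of the libraries with fat markers, the lowest of its group for all 10. Plvap gives the scale: it stood at 9.70 CPM in that animal and at 65.9 to 199 CPM in the others of the dose. Replicate 1 at 30 mg/kg was the highest of its dose for 9 genes. At 15 mg/kg replicates 1 and 3 were the highest for 5 genes each. All 10 genes were below the control range in 2 of 5 cisplatin animals and in 4 of 5 at each dose. The share of all tested genes that were highest, lowest or below the control range in a single animal was not taken. These counts therefore have no background beside them. Across the 20 libraries, the correlation of a gene with the mean of the other 9 was 0.88 to 0.97 for 8 genes, 0.62 for Flt1 and 0.59 for Aplnr (Pearson r of log2 CPM, a description, since the libraries share group differences, depth and the scaling).

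Markers of tubular injury also varied between animals. The summed level of 6 injury markers was 15100 CPM in 30 mg/kg replicate 6. It was 946 CPM in replicate 1 of that dose and 2150 and 1100 CPM in replicates 1 and 3 at 15 mg/kg, against 3960 to 8510 CPM in the other treated animals. The order was not the same in the other groups. Cisplatin replicate 10, the lowest of its group for 7 genes, had the lowest injury sum of its group (2360 CPM). Replicates 3 and 6 had 7140 and 7460 CPM. The injury marker Spp1 alone gave 1840 CPM of the sum in replicate 10. With the 6 markers averaged as log2 CPM, replicate 9, the highest of its group for 9 genes, was lowest at 5.45. Replicate 10 then had 5.91, and replicates 2, 3 and 6 had 6.26, 6.48 and 6.89. The lowest place of replicate 10 thus depended on how the markers were combined. Control replicate 2 had the highest injury sum of the controls (1290 CPM, with 425 to 821 CPM in the others) and the second highest sum of the 10 genes. Markers of mural cells and fibroblasts also varied with the endothelial genes. Of 10, 4 fell with cisplatin (2 without control replicates 2 and 5), where 5.01% of all tested genes fell. Their sum was 602 to 1340 CPM in control and 239 to 397 CPM in cisplatin, apart from replicate 9 at 1410 CPM. At 15 and 30 mg/kg it was 216 to 440 and 188 to 415 CPM. Of 8 podocyte markers 4 fell and 1 rose with cisplatin (1 and 0 without either pair of libraries), where 5.01% of all tested genes fell and 8.41% rose. The podocyte sums were 167 to 307 CPM in control and 54.5 to 132 CPM in cisplatin. None of these markers was at 0 in any library. Their part in the endothelial values was not tested.

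**Figure D5:**
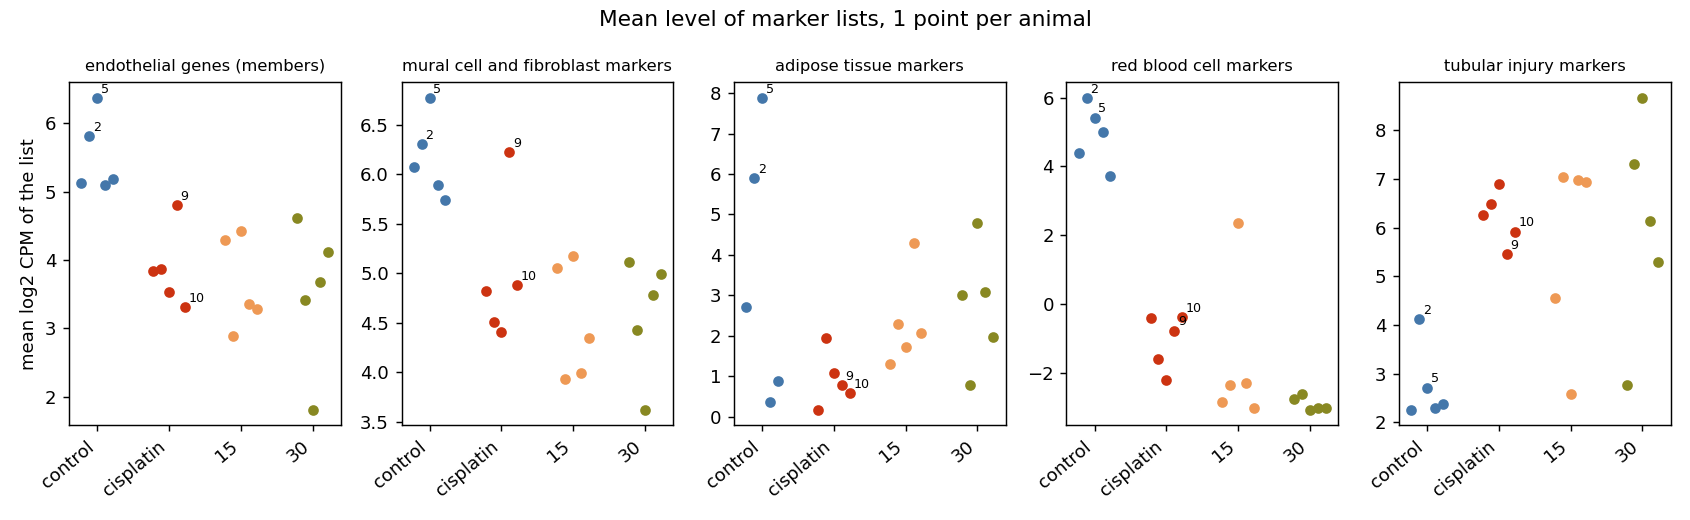
Mean log2 CPM (prior count 2) of the tested genes of 5 marker lists in each animal, by group, with 1 point per animal. Control replicates 2 and 5 and cisplatin replicates 9 and 10 are labelled; the lowest animal for the endothelial genes, at 1.81, is replicate 6 at 30 mg/kg, which is also the highest for tubular injury, at 8.66.

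Fat and blood differed between groups as well. Of 7 tested adipose markers 6 fell with cisplatin, where 5.01% of all tested genes fell. None of the 7 was called by edgeR when control replicates 2 and 5 were left out. The list summed to 423 to 3050 CPM in control, 97.1 to 368 CPM in cisplatin. The lower dose had 183 to 623 CPM and the higher 252 to 539 CPM. Lpl alone stood at 315 to 999 CPM in control, so the control sums do not show fat in each control. The mean log2 CPM of the list was 0.37 and 0.87 in control replicates 7 and 8. These lay inside the cisplatin range of 0.17 to 1.94. Adipoq was at 0 in 2 control, 3 cisplatin and 1 of the 30 mg/kg libraries. All 5 red cell markers fell with cisplatin (2 without control replicates 2 and 5). Their sums were 138 to 662 CPM in control and 1.74 to 10.1 CPM in cisplatin. They were 0.454 to 69.3 CPM for the lower dose and 0.403 to 0.997 CPM for the higher. Up to 2 of the 5 were at 0 in a treated library, and the beta globin gene Hbb-bs was at 0 in 2 libraries at 30 mg/kg. Platelets and leukocytes also express Pecam1. Of 5 platelet markers none passed with cisplatin and 4 were lower at each dose than in cisplatin (1 and 2 without cisplatin replicates 9 and 10). Of all tested genes 18.6% and 13.2% were lower than cisplatin at the lower and the higher dose. The platelet sums were 13.5 to 50.8 CPM in cisplatin, compared with 11.3 to 19.5 and 8.64 to 14.9 CPM. Of 7 tested leukocyte markers 3 fell and 1 rose with cisplatin (1 and 0 without either pair of libraries), where 5.01% of all tested genes fell and 8.41% rose. The leukocyte sums were 55.6 to 135 CPM in control and 43.2 to 73.1 CPM in cisplatin. The part of these cells in the endothelial values was not tested.

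The 9 genes for VEGF, angiopoietin and apelin ligands summed to 334 to 384 CPM in control, 223 to 305 CPM in cisplatin, 185 to 258 CPM for the lower dose and 141 to 225 CPM for the higher, so that every treated animal was below every control. Of the 9, 2 fell with cisplatin and none rose, with a median log2 fold change of -0.85. Of all tested genes 5.01% fell and 8.41% rose. Against control, 6 were lower and 1 higher at 15 mg/kg, and 4 were lower and none higher at 30 mg/kg (3 lower at each dose without control replicates 2 and 5). Of all tested genes 22.2% were lower and 23% higher at 15 mg/kg, and 15.6% and 18.6% at 30 mg/kg. Apln, for apelin, stood at 2.46 to 5.88 CPM in control and 0.408 to 2.46 CPM in cisplatin (log2 fold change -1.67 ± 0.43, adjusted p = 0.0165). Angpt2, for the angiopoietin released by activated endothelium, fell from a mean of 33.2 to 10.4 CPM (-1.65 ± 0.52, adjusted p = 0.0414). Neither was called when control replicates 2 and 5 were left out (Apln -1.70, adjusted p = 0.0614; Angpt2 -1.11, adjusted p = 0.282) or when cisplatin replicates 9 and 10 were (-1.26, 0.0926, and -1.26, 0.187). Vegfa, the principal VEGF gene, did not pass with cisplatin, with means of 137 CPM in control and 129 CPM in cisplatin (-0.09 ± 0.24, adjusted p = 0.838). It was lower than in cisplatin at 15 mg/kg (62.6 CPM, -1.04 ± 0.24, adjusted p = 0.00252) and at 30 mg/kg (71.1 CPM, -0.86 ± 0.24, adjusted p = 0.0121). Without cisplatin replicates 9 and 10 the changes were -1.09 (adjusted p = 0.00461) and -0.96 (0.0167), and with library totals as the only scaling -0.77 (0.156) and -0.51 (0.358). Vegfb was higher at 15 mg/kg (0.71, adjusted p = 0.015), though not with cisplatin replicates 9 and 10 left out (0.58, adjusted p = 0.104).

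Among 30 other endothelial identity genes, 6 fell and 1 rose with cisplatin, where 5.01% of all tested genes fell and 8.41% rose. The median log2 fold change of the 30 was -0.74. The falls were those of Cd34, Cldn5, Ecscr, Heg1, Lmo2 and Ptprb, which encodes the phosphatase that restrains the product of Tek. Without control replicates 2 and 5 none of the 30 was called by edgeR. Against cisplatin, 9 were lower and 1 higher at 15 mg/kg, where 18.6% and 18.9% of all tested genes were, and 8 were lower and 0 higher at 30 mg/kg, where 13.2% and 14.7% were. Leaving out cisplatin replicates 9 and 10 gave 4 lower and 0 higher at each dose. Against control, 18 and 23 were lower and 0 higher, where 22.2% and 15.6% of all tested genes were lower. Leaving out control replicates 2 and 5 gave 10 lower at each dose. With library totals as the only scaling the numbers lower than cisplatin were 2 and 1.

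Nos3, which encodes endothelial nitric oxide synthase, was the gene of this list that rose. It stood at 10.1 to 21.4 CPM in control and at 31.1, 13.4, 14.5, 36.1 and 80.2 CPM in the cisplatin animals (log2 fold change 1.34 ± 0.36, adjusted p = 0.0205). The highest values were those of replicates 9 and 10, without which the change was 0.48 (adjusted p = 0.382). It was also not called when control replicates 2 and 5 were left out (1.58, adjusted p = 0.0607) or with library totals as the only scaling (0.56, 0.385). At 15 mg/kg it stood at 6.43 to 9.41 CPM (-2.22 ± 0.38 against cisplatin, adjusted p = 0.000315), and at 30 mg/kg at 5.86 to 11.5 CPM (-2.08 ± 0.37, adjusted p = 0.00101). No animal at either dose reached the lowest cisplatin value, and both calls remained without replicates 9 and 10 (-1.36, adjusted p = 0.00411, and -1.27, 0.0113) and with library totals as the only scaling (-1.57, 0.00782, and -1.32, 0.0236). Sox17, a transcription factor of arterial endothelium, was also lower at both doses (-1.33 ± 0.28, adjusted p = 0.0013, and -1.20 ± 0.28, adjusted p = 0.00427). Robo4, a receptor that stabilises vessels, was lower by -1.22 ± 0.28 (adjusted p = 0.00277) and -1.45 ± 0.29 (adjusted p = 0.0016). Neither passed the test of cisplatin against control (Sox17 -0.07, adjusted p = 0.896, and Robo4 -0.03, adjusted p = 0.956). When only library totals set the scale, Robo4 was called at neither dose (-0.78, adjusted p = 0.133, and -0.93, 0.0866), and Sox17 at 15 mg/kg alone (-1.21, 0.0499, and -0.97, 0.118).

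Of 5 tested genes of activated endothelium, 2 rose and 1 fell with cisplatin, where 8.41% of all tested genes rose and 5.01% fell. Icam1, a leukocyte adhesion molecule that injured tubule cells also make, rose from a mean of 30.2 to 113 CPM (log2 fold change 1.90 ± 0.40, adjusted p = 0.00633). Edn1, for the vasoconstrictor endothelin 1, rose from 2.41 to 7.96 CPM (1.71 ± 0.40, adjusted p = 0.0105). Without cisplatin replicates 9 and 10 these stood at 1.29 (adjusted p = 0.0522) and 1.49 (0.0538). Icam1 was not called when control replicates 2 and 5 were left out (1.70, adjusted p = 0.0668). Edn1 was not called when only library totals set the scale (1.21, adjusted p = 0.127). Edn1 was lower than cisplatin at 15 mg/kg (-1.81 ± 0.40, adjusted p = 0.0019) and did not pass at 30 mg/kg (-0.98 ± 0.39, adjusted p = 0.0637).

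The genes whose log2 CPM most resembled the mean of the 10 over the 20 libraries were Tril, Itga8, Ptprb, Tbc1d2b and Foxc2, with Pearson r of 0.971 to 0.952 among 11643 genes of at least 2 CPM. Within groups, as deviations from group means, they were Tmem204, Cd300lg, Tril, Meox1 and Rcsd1, with r of 0.949 to 0.926. Tril was on both lists. The libraries share depth and scaling, and these are descriptions.

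In the authors' deposited table the comparison of control and cisplatin gave log2 fold changes of 5.25 for Aplnr and -0.08 for Flt1, signed as control over cisplatin. For 15 mg/kg against cisplatin the authors' deposited table gave -1.48 for Flt1 and 2.65 for Aplnr. For 30 mg/kg the authors' deposited table gave -1.40 and 2.67. The authors' own q-values were below 0.05 for some members that edgeR did not call here. For control and cisplatin they were 0.00794 for Emcn, 0.0152 for Ehd3 and 0.0437 for Plvap, while Tie1 (0.123) and Flt1 (0.962) did not pass there either. Against control they were 0.00155 for Plvap at 15 mg/kg and 0.0326 for Ehd3 at 30 mg/kg.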

How the data were processed

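Polyadenylated mRNA of whole kidney from 20 mice was sequenced as paired 150 bp reads, per the labels' protocols. Per the submitters' processing notes the tools were DESeq2, StringTie, HISAT2, Trimmomatic and FastQC (versions not listed) and the build mm10 (GRCm38). How reads were counted, with which strand setting and annotation, is not given in the sources used here. The authors deposited raw counts per gene and library, per the file headers. The log2 fold changes and q-values of the authors' deposited table belong to their own group comparisons, and only some of them are quoted.

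Groups and replicate numbers were taken from the sample titles, and each of the 20 count columns matched 1 library. After filterByExpr by group and TMM scaling, counts were tested by the quasi-likelihood F-test of edgeR 4.0.16 with robust fitting, run in R 4.3.3. All libraries entered 1 fit (16 residual degrees of freedom), checked on simulated data. The SE is the log2 fold change over the square root of F. Replicates of a group differed beyond sampling noise, with a chi-square per degree of freedom of at least 27.29, so none was counted as a repeat. CPM are not corrected for length unless given per kilobase of annotated exon. The floor of 3 counts covers counting error only. The named genes are the 10 members, up to 4 tested genes of each marker list with the smallest p, and the 5 most like the members' mean. Adipoq and the falls among the other endothelial identity genes, which that rule does not give except for Ptprb, were named after their values were seen. The members and lists were chosen with earlier results of these data known. Alternatives were DESeq2 1.42.0, other scalings, no filter, a replicate block, only the groups compared and libraries left out. Those for the counts of the marker lists were chosen after seeing the data. Same-numbered animals deviated together little (r -0.309 to 0.234, over 0.1 in 3 of 15 pairs), and the numbers were not used as pairs. Such correlations cannot exclude a weaker link between these animals.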

Additional observations from a re-analysis of the deposited data

Results flagged for a closer look

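Of 40 groups of 5 animals (10 genes in 4 groups), 3 held an animal far from the others by Dixon's test on log2 CPM. Chance flags about 1 in 20. The genes share libraries and most vary together, so the 40 tests are not independent. All 3 were cisplatin replicate 9, the library with 77.7% of its counts from mitochondrial mRNAs. Kdr stood there at 26.6 CPM, with the next highest animal at 7.47 CPM. Emcn stood at 91.7 CPM, with the next at 31.5 CPM. Ehd3 stood at 40.8 CPM, with the next at 12.5 CPM. In this library 6 of the 10 genes lay within the control range, 1 (Flt1) above it and 3 below. The share of all tested genes in each of these positions was not taken. Mural cell and fibroblast markers were also highest of the group there, with a sum of 1410 CPM. What sets this library apart was not tested.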

How the results depend on the processing

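Across the alternatives, 1007 values for single genes kept direction and side of the threshold, 110 lost and 13 gained a call, and 70 changed sign, none of them called. For cisplatin against control, where 5 of the 10 genes were called, 6 were by DESeq2, 8 with library totals as the only scaling, 2 without the filter, 4 in a fit of those groups alone, 3 without cisplatin replicates 9 and 10, 1 without control replicates 2 and 5, 1 without the 4 libraries with fat (control replicates 2 and 5, replicate 5 of the lower and 6 of the higher dose) and 1 to 8 without single animals (1 without control replicate 2 or 5 or cisplatin replicate 2, 6 or 10, 2 without cisplatin replicate 3, 8 without cisplatin replicate 9). The 2 calls of each dose against cisplatin became 0 with library totals and 0 without replicates 9 and 10, 1 at 30 mg/kg without the filter, and 1 to 2 without single animals. The 9 calls at 15 mg/kg against control became 5 without control replicates 2 and 5, 3 without the libraries with fat and 7 to 9 without single animals, and those at 30 mg/kg became 1, 1 and 7 to 10. With the replicate number as a block, 0 genes were called for cisplatin against control and 0 for either dose against cisplatin. Over all genes 17, 1329 and 310 were called instead of 1994, 5578 and 4148. Whether the numbers pair any animals is not known. Control and cisplatin share only number 2, so the block leaves little direct comparison between them. Numbers 9 and 10 occur in the cisplatin group alone, so the block fits each of those libraries with a term of its own. The cause of these shifts was not tested, but leaving out libraries also leaves fewer samples.

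Over all genes, cisplatin against control gave 883 calls with library totals (207 higher and 676 lower, against 1250 and 744), 1193 in the fit of those groups alone, 691 without cisplatin replicates 9 and 10, 292 without control replicates 2 and 5, 592 without the libraries with fat and 829 to 2179 without single animals. The doses against cisplatin gave 2046 (1537 higher and 509 lower) and 1413 (1220 and 193) with library totals, 4585 to 5829 and 3155 to 4668 without single animals, and 2222 at 30 mg/kg without replicates 9 and 10. Against control they gave 3102 (1216 and 1886) and 2051 (926 and 1125) with library totals, 4216 and 2748 without control replicates 2 and 5, 3166 and 2387 without the libraries with fat, and 5616 to 6708 and 3873 to 5062 without single animals, instead of 6709 and 5088. Between doses DESeq2 called 1, and 0 to 2 were called without single animals. Library totals moved the median of all genes to -0.35 for cisplatin against control, and to 0.23 and 0.39 for the doses against cisplatin.

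Signs changed for uncalled values as follows. Flt1 under cisplatin was -0.68 with library totals, -0.55 with the block, -0.73 without replicates 9 and 10 and -0.47 to 0.29 without single animals. At 15 mg/kg against cisplatin Plvap was -0.03 by DESeq2 and its scaling, -0.01 without mitochondrial mRNAs and -0.32 with the block. Library totals gave Pecam1 0.17, Kdr 0.14, Emcn 0.13 and Ehd3 0.34, and leaving out replicates 9 and 10 gave 0.04, 0.09, 0.12 and 0.30. Single animals moved Ehd3 from -0.61 to 0.39, Emcn -0.65 to 0.09, Kdr -0.93 to 0.19, Pecam1 -0.46 to 0.13 and Plvap -0.15 to 0.59. At 30 mg/kg Ehd3 was -0.02 by DESeq2, -0.01 with its scaling and -0.20 with the block. Library totals gave Pecam1 0.34, Cdh5 0.06, Kdr 0.43 and Plvap 0.20, leaving out replicates 9 and 10 gave Pecam1 0.11, Kdr 0.33 and Plvap 0.05, and leaving out the libraries with fat gave Pecam1 0.01 and Kdr 0.01. Single animals moved Cdh5 from -0.75 to -0.08, Ehd3 -0.38 to 0.72, Kdr -0.45 to 0.44, Pecam1 -0.44 to 0.22 and Plvap -0.82 to 0.18. Between doses the block gave Tek 0.07, Tie1 0.09 and Aplnr 0.75, and leaving out the libraries with fat Tie1 0.06 and Aplnr 0.10. There single animals moved Aplnr from -0.97 to 0.75, Cdh5 -0.08 to 0.52, Ehd3 -0.11 to 0.67, Emcn -0.64 to 0.02, Flt1 -0.12 to 0.20, Pecam1 -0.12 to 0.31, Tek -0.28 to 0.27 and Tie1 -0.32 to 0.11. Depth limits Aplnr most, with 0 to 13 counts in the cisplatin libraries.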

Other observations

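Genes of arteries, veins and lymphatic vessels were lower where called, apart from 1 venous or lymphatic gene that was higher at 15 mg/kg against cisplatin and 1 at each dose against control. Of all tested genes 5.01% fell with cisplatin, and 18.6% and 13.2% were lower than cisplatin at 15 and 30 mg/kg. At 15 mg/kg 18.9% were higher than cisplatin. Against control, 3 of 6 arterial genes were lower at each dose. Of 7 venous and lymphatic genes, 4 were lower at 15 mg/kg and 6 at 30 mg/kg. The shares of all tested genes lower than control were 22.2% and 15.6%, and those higher 23% and 18.6%. Of 6 arterial genes 1 fell with cisplatin: Efnb2, for the ligand ephrin B2, by -1.49 ± 0.33 on the log2 scale (edgeR adjusted p = 0.00876), and by -1.04 without control replicates 2 and 5 (adjusted p = 0.101). At 15 mg/kg 3 were lower than cisplatin, Efnb2 (-0.98, adjusted p = 0.0256), Dll4 (-0.67, 0.044) and Bmx (-1.59, 0.0154), and at 30 mg/kg Bmx alone (-1.73, 0.0133). The call of Dll4 was lost without cisplatin replicates 9 and 10 (-0.68, adjusted p = 0.108). Of 7 venous and lymphatic genes 2 fell with cisplatin: Ccl21a, a chemokine of lymphatic vessels (-2.67 ± 0.73, adjusted p = 0.0227), and Nr2f2, a regulator of venous identity (-0.78 ± 0.26, adjusted p = 0.0484). With control replicates 2 and 5 left out they had -2.63 (adjusted p = 0.0926) and -0.61 (0.242). Flt4, for the lymphatic VEGF receptor VEGFR3, was lower than cisplatin at 15 mg/kg (3.64 against 8.42 CPM, -1.19 ± 0.38, adjusted p = 0.0174) and at 30 mg/kg (3.98 CPM, -1.07 ± 0.38, adjusted p = 0.0381). With cisplatin replicates 9 and 10 left out these were -0.79 (adjusted p = 0.153) and -0.68 (0.254). Lyve1, a lymphatic hyaluronan receptor that some macrophages also make, was lower at both doses from a mean of 0.717 CPM (-3.29, adjusted p = 0.00546, and -2.39, adjusted p = 0.029), the second of which did not pass without those libraries (-1.96, adjusted p = 0.136).

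Of 3 tested glomerular endothelial genes none passed with cisplatin. Nostrin, which encodes a protein that binds endothelial nitric oxide synthase, was lower than cisplatin at 15 mg/kg (-1.35 ± 0.45, adjusted p = 0.0242) and at 30 mg/kg (-1.71 ± 0.46, adjusted p = 0.0099). Without cisplatin replicates 9 and 10 these were -0.39 (adjusted p = 0.533) and -0.80 (0.215). The 8 proximal tubule markers held 6 that were higher than cisplatin at each dose, where 18.9% and 14.7% of all tested genes were higher. Their sums were 1440 to 3580 CPM in cisplatin, 3920 to 7390 CPM at 15 mg/kg and 3450 to 10700 CPM at 30 mg/kg. Their part in the endothelial values was not tested.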
